A study of Mus musculus with 6 samples.

Results

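The cytochrome P450 genes of families 1 to 3 were followed in wild-type mouse livers and in livers that lack normal Mettl3, the enzyme subunit of the RNA N6-methyladenosine writer. Members were chosen by name: every gene in the 6 count files whose symbol is Cyp followed by the digit 1, 2 or 3, a letter and a number, with symbols holding -ps left out as pseudogenes. The rule used no measured value and found 60 of the 27179 genes counted, in 16 subfamilies. Of these, 15 are Cyp2c genes on chromosome 19, 9 are Cyp2d genes on chromosome 15 and 9 are Cyp3a genes on chromosome 5. Cyp2d13 is a transcribed pseudogene by its RefSeq type and was kept because its symbol fits the rule.

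The series compared gene expression between 3 wild-type and 3 Mettl3-deficient livers, all from C57BL/6 mice, by RNA-seq of RNA depleted of ribosomal RNA. The sources used here do not state how Mettl3 was made deficient, in which cells, or the age and sex of the mice. Whether each liver came from a separate mouse is not labelled either, and a p-value therefore reflects the spread of these 6 samples, which may be partly technical.

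P450 enzymes of these families are heme proteins of the endoplasmic reticulum that insert oxygen into drugs, carcinogens, steroids, bile acids and fatty acids. They take electrons from the reductase encoded by Por and from cytochrome b5, and in the liver they are made mostly in hepatocytes. The ligand-activated factors AHR, CAR (gene Nr1i3) and PXR (gene Nr1i2) are known to induce members of family 1, of Cyp2b and Cyp2c, and of Cyp3a. Several mouse members are also sex-dimorphic, under the control of the pulses of growth hormone.

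The libraries, numbered by their replicate, held 31960205 to 36025772 counts. Mettl3 ranged from 12.1 to 14.3 CPM in wild-type livers and from 4.94 to 6.60 CPM in Mettl3-deficient livers (log2 fold change -1.18 ± 0.20 SE, edgeR adjusted p = 0.00797). CPM are counts scaled to a common library size with TMM factors, which correct for composition. Wild type replicate 1 stood apart from the other wild-type libraries: it held 6508 counts of Y-linked genes and 12 of Xist, against 0 Y-linked counts and 14556 and 19094 Xist counts in replicates 2 and 3. Among the Mettl3-deficient libraries, replicates 1 and 2 held 4747 and 5031 Y-linked counts and replicate 3 held 0. Wild type replicate 1 was thus the only wild-type library with Y-linked counts, so results that rest on it are given with and without it, and the effect of Y-linked reads within the wild type cannot be told apart from that library. The hepatocyte markers present in the files, 7 of 8 fixed, summed to 142073 to 175201 CPM in wild-type and 46107 to 75932 CPM in Mettl3-deficient livers. Of them, 2 fell, Alb and Serpina1a, and none rose (median log2 fold change -0.94), beside 10.5% and 13.3% of all tested genes. Most of the sum was Alb, with a mean of 129617 CPM in wild-type and 44710 CPM in Mettl3-deficient livers. In bulk tissue, fewer cells of a type and less RNA per cell cannot be told apart, and the part of these markers in the P450 values was not tested.

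Among the P450 genes tested, falls in Mettl3-deficient livers outnumbered rises, and they spanned Cyp1a, Cyp2 and Cyp3a genes. Of the 60 members, 48 passed the filter on low counts and were tested, and 12 were not. At an edgeR adjusted p under 0.05, 19 of the 48 fell, which is 39.6%, and 10.5% of all 14380 tested genes were called lower. Cyp1a1 and Cyp2c55 rose, which is 4.17% of the 48, against 13.3% of all tested genes. The log2 fold change was below 0 for 41 tested members and above 0 for 7, and its median was -1.66, beside 0.01 over all tested genes. The falls ran from 1.85-fold to 40.1-fold, with 18 of the 19 over 2-fold and 9 over 4-fold. When only library size was used for scaling, the median over all tested genes went from 0.01 to 0.49 and that over the members to -1.18, with 16 members called lower and 3 higher, beside 4.14% and 33.4% of all tested genes.

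Without regard to the test, every Mettl3-deficient library lay below every wild-type library for 24 of the 48 (21.9% of all tested genes) and above for 2 (23.9%). For the remaining 22 the groups overlapped. These separations are on the TMM scale. As a share of all counts, the groups also overlapped for Cyp1a2, Cyp2c29, Cyp2c40, Cyp2c70, Cyp2d9, Cyp2d11, Cyp2e1 and Cyp2r1. With a covariate for libraries with Y-linked counts, 16 members were called lower and 0 higher (background 10.5% and 12.1%), and 15 of the 16 were among the 19. Leaving out wild type replicate 1 gave 27 lower and 2 higher (background 10.7% and 13.1%). In that fit no wild-type library has Y-linked counts and 2 of the 3 Mettl3-deficient libraries do, so Y-linked counts are divided more unevenly between the groups than in the full set, where 1 of 3 and 2 of 3 libraries have them. Leaving out wild type replicate 2 or 3 gave 8 and 9 lower, and leaving out Mettl3-deficient replicate 1 gave 12. Calls over all genes dropped in these 3 fits too, with 3.96%, 4.17% and 3.53% of tested genes called lower. Of the 21 calls, 8 held whichever library was left out, all of them lower: Cyp2a12, Cyp2c23, Cyp2c54, Cyp2c68, Cyp2d10, Cyp2d40, Cyp2f2 and Cyp2j5. The share of all called genes that held in this way is not given here, so the 8 cannot be set against it.

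**Figure D1:**
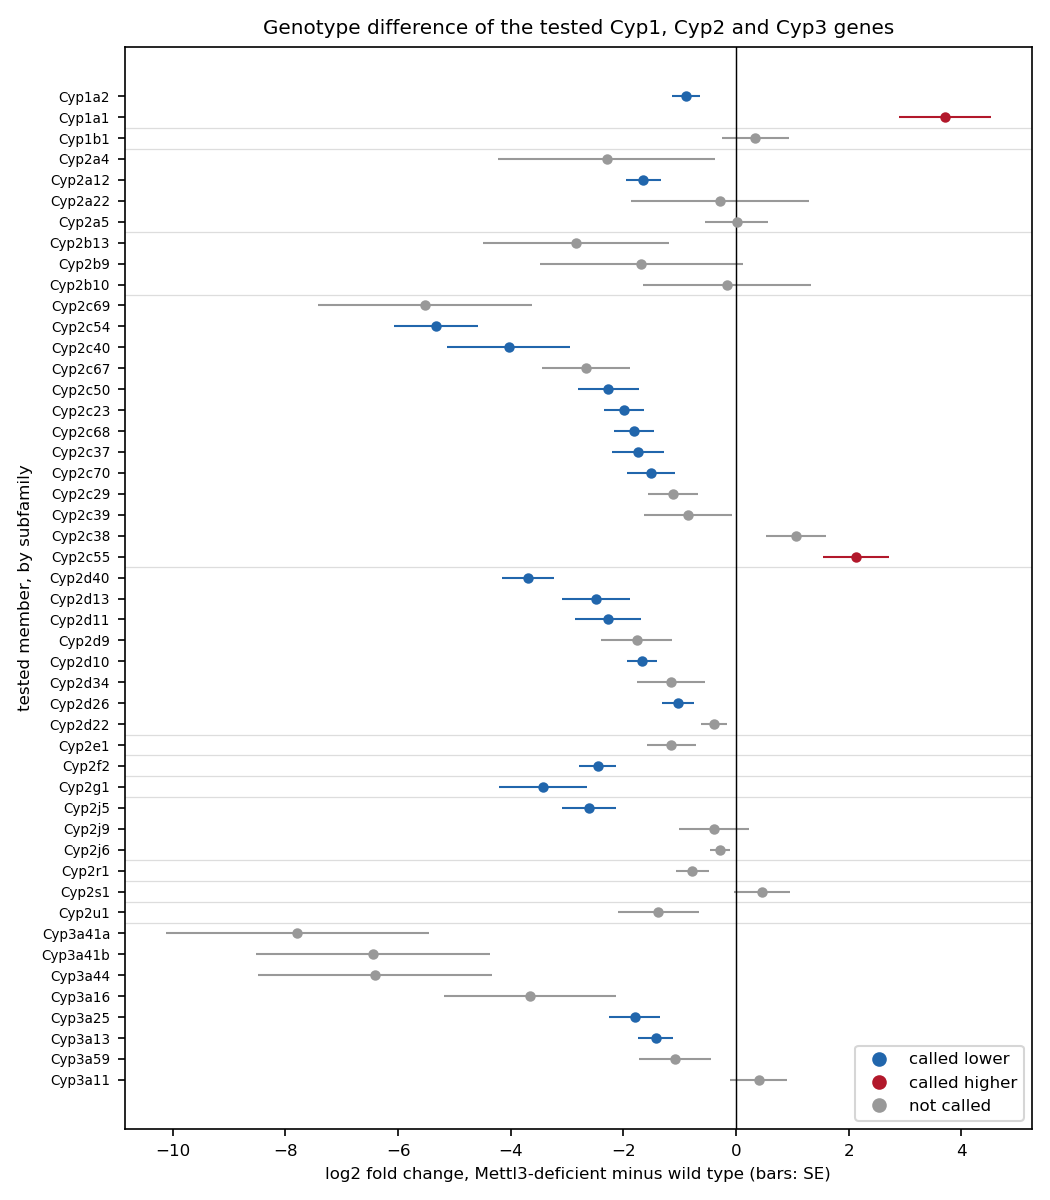
Log2 fold change (Mettl3-deficient minus wild type, horizontal axis) of the 48 tested members, grouped by subfamily on the vertical axis. Bars are the SE worked out from the F statistic of the edgeR test. Points called lower (19) lie to the left of 0 in the Cyp1a, Cyp2a, Cyp2c, Cyp2d, Cyp2f, Cyp2g, Cyp2j and Cyp3a subfamilies, and the 2 called higher are Cyp1a1 and Cyp2c55.

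The Cyp1a genes, a neighbouring pair, changed in opposite directions. Cyp1a1 (Entrez 13076, chromosome 9, 57687928 to 57703824 on GRCm38), which oxidises polycyclic aromatic hydrocarbons and is the classic gene induced through AHR, held 1.56, 1.45 and 2.33 CPM in wild-type livers and 11.7, 51.1 and 6.86 CPM in Mettl3-deficient livers. All Mettl3-deficient values were above all wild-type values, with Mettl3-deficient replicate 2 the highest by far. Cyp1a1 rose by 3.71 ± 0.81 in log2 (SE, edgeR adjusted p = 0.0212). The call was lost without wild type replicate 2 or 3 (highest edgeR adjusted p 0.0843) and with the Y-linked covariate (edgeR adjusted p = 0.065), and the log2 fold change was 2.38 without Mettl3-deficient replicate 2.

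Its neighbour Cyp1a2 (chromosome 9, 57676937 to 57683655), which metabolises caffeine and aromatic amines, held 675, 1034 and 885 CPM in wild-type livers and 522, 404 and 474 CPM in Mettl3-deficient livers. The groups did not overlap on the TMM scale, and Cyp1a2 fell by 0.89 ± 0.25 in log2 (edgeR adjusted p = 0.0383). That call held only when wild type replicate 1 was the library left out, with edgeR adjusted p values up to 0.14 without any other one, and it was lost with the Y-linked covariate (edgeR adjusted p = 0.0577) and with library size alone. Per length of transcript, Cyp1a2 remained the more abundant of the pair, at 241 CPM per kb against 8.64 for Cyp1a1 in Mettl3-deficient livers. Cyp1b1, a largely extrahepatic member, ranged from 0.775 to 3.07 CPM over the 6 libraries and was not called (edgeR adjusted p = 0.697).

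The 4 Cyp2a genes lie on chromosome 7 and form near-identical pairs. Cyp2a12 fell, and the other 3 were not called. Cyp2a12 held 606, 1061 and 1080.4 CPM in wild-type livers and 339, 226 and 311 CPM in Mettl3-deficient livers, so that the groups did not overlap. It fell by 1.65 ± 0.31 in log2 (edgeR adjusted p = 0.0109). Cyp2a22, whose coding sequence is 97.0% identical to that of Cyp2a12, held 0.426, 132 and 177 CPM against 83.8, 38.8 and 131 CPM, with the lowest value in wild type replicate 1. Its log2 fold change was -0.29 ± 1.58 (edgeR adjusted p = 0.911).

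Cyp2a4, known as a testosterone 15-alpha-hydroxylase, and Cyp2a5, known as a coumarin 7-hydroxylase, share 98.5% of their coding bases, so reads could be split between them and their levels are uncertain. Cyp2a4 held 0.533, 672 and 928 CPM in wild-type livers and 119.9, 47.4 and 157 CPM in Mettl3-deficient livers (log2 fold change -2.30 ± 1.92, edgeR adjusted p = 0.422). Cyp2a5 held 169.9, 920.2 and 871 CPM against 821, 561 and 594 CPM (0.01 ± 0.56, edgeR adjusted p = 0.991). Both were lowest in wild type replicate 1. Without that library Cyp2a4 was called lower (-2.89, edgeR adjusted p = 0.0102) and Cyp2a5 was not called (-0.45, edgeR adjusted p = 0.238).

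The starts of these genes are shown because their levels differed while the sequence hardly does. The windows are the 100 bases before the start in the RefSeq promoter table for GRCm38.p6, which can differ from the outer end of the gene, at chr7:26307092-26307191 for Cyp2a4 and chr7:26835239-26835338 for Cyp2a5, both on the plus strand. Capitals mark TATAAA, the TATA box, and TTGCNNAA, a core bound by C/EBP factors.
Cyp2a4: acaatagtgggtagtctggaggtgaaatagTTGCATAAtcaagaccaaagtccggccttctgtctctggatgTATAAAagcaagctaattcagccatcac
Cyp2a5: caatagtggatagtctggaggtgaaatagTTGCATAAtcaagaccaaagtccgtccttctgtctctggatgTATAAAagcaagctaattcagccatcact
The aligned windows differed at 2 of 99 bases, and both hold the same capitalised matches. A match is a description of letters and not a bound site.

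The Cyp2b genes, also on chromosome 7, include the phenobarbital-induced CAR target Cyp2b10. None of the 3 tested members was called, and wild type replicate 1 was the lowest library for each. Cyp2b10 held 0.426, 80.1 and 163 CPM in wild-type livers and 62.3, 80.7 and 74 CPM in Mettl3-deficient livers (log2 fold change -0.16 ± 1.49, edgeR adjusted p = 0.947). The Mettl3-deficient values lay between those of wild type replicates 1 and 3. Cyp2b9 held 0.142, 282 and 309.6 CPM against 52.5, 46 and 86 CPM, and Cyp2b13 0.071, 75.7 and 74.7 CPM against 8.34, 5.98 and 6.71 CPM. Without wild type replicate 1, Cyp2b9 (-2.27, edgeR adjusted p = 0.00501) and Cyp2b13 (-3.43, edgeR adjusted p = 0.000387) were called lower, and Cyp2b10 was not (-0.75, edgeR adjusted p = 0.107). Cyp2b19 and Cyp2b23 had at most 2 counts in any library and were not tested.

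Cyp2b9 and Cyp2b13 are both female-predominant in mouse liver by textbook knowledge, and the windows before their starts are shown beside that of Cyp2b10. They lie on the plus strand at chr7:26173309-26173408, chr7:26061395-26061494 and chr7:25897558-25897657 (RefSeq, GRCm38.p6). Capitals mark the TTGCNNAA core.
Cyp2b9: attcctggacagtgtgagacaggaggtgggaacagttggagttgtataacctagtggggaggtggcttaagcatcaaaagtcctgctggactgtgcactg
Cyp2b13: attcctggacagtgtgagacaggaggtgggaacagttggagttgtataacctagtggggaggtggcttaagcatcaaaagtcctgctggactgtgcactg
Cyp2b10: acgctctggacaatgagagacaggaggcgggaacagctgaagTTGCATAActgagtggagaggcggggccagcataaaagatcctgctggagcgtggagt
The windows of Cyp2b9 and Cyp2b13 were identical over 100 bases, and each matched that of Cyp2b10 at 76.8% of 99 aligned bases. The capitalised core was found in the Cyp2b10 window and not in the other ones.

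Cyp2c was the largest subfamily and held the largest called fall. Of 15 Cyp2c genes, 13 were tested, 7 fell (10.5% of all tested genes) and Cyp2c55 rose (13.3%), with a median log2 fold change of -1.81. Many of these enzymes make epoxides of arachidonic acid. Cyp2c54 (Entrez 404195, chromosome 19, 40037939 to 40073845) held 482, 574 and 533 CPM in wild-type livers and 25.9, 10.3 and 3.37 CPM in Mettl3-deficient livers. The groups were far apart, and Cyp2c54 fell 40.1-fold (log2 fold change -5.33 ± 0.74, edgeR adjusted p = 0.00532). Leaving out Mettl3-deficient replicate 1, the highest of its group, gave -6.27.

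The genes beside Cyp2c54 fell with smaller fold changes, and the differences between genes were not tested. Cyp2c50 (chromosome 19, 40089679 to 40113955), 95.2% identical to Cyp2c54 in coding bases, held 1124, 1226 and 1068 CPM in wild-type livers and 408, 75.4 and 225 CPM in Mettl3-deficient livers (-2.27 ± 0.54, edgeR adjusted p = 0.0229). Cyp2c37, on the other side and 96.1% identical to Cyp2c50, held 313, 459.8 and 473 CPM against 156, 46.9 and 172 CPM (-1.74 ± 0.46, edgeR adjusted p = 0.0316). Neither overlapped between the groups, and Mettl3-deficient replicate 2 was the lowest library for both. The Cyp2c50 call was lost without wild-type library 2 or 3 or Mettl3-deficient library 3 (highest edgeR adjusted p 0.0665), and its log2 fold change was -2.92 without Mettl3-deficient replicate 1. The Cyp2c37 call was lost without wild-type library 2 or 3 or Mettl3-deficient library 1 (highest edgeR adjusted p 0.0878).

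Cyp2c23 and Cyp2c68 fell by amounts that held without any 1 library. Cyp2c23, an arachidonic acid epoxygenase that lies apart from the Cyp2c cluster on the same chromosome, held 303, 336 and 324 CPM in wild-type livers and 116, 42.6 and 83.6 CPM in Mettl3-deficient livers (-1.99 ± 0.35, edgeR adjusted p = 0.00886). Cyp2c68 held 312, 620.2 and 519 CPM against 161, 84.2 and 169.5 CPM (-1.81 ± 0.36, edgeR adjusted p = 0.0133). Both were separated between the groups. Cyp2c70, the enzyme that makes muricholic acids in mice, held 1334, 1467 and 995 CPM against 738, 225 and 367 CPM (-1.51 ± 0.43, edgeR adjusted p = 0.0403). Its groups did not overlap on the TMM scale. The Cyp2c70 call held only without Mettl3-deficient replicate 1 among the 6 libraries left out in turn (highest edgeR adjusted p 0.114). That call was also lost with the Y-linked covariate (edgeR adjusted p = 0.0542) and with library size alone.

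Cyp2c40 and Cyp2c69, which are female-predominant in textbook mouse liver, share 97.9% of their coding bases, and Cyp2c40 shares 98.1% with Cyp2c68, so reads could be split among them. Cyp2c40 held 52.5, 613 and 509 CPM in wild-type livers and 46.9, 7.86 and 16.6 CPM in Mettl3-deficient livers, with wild type replicate 1 close above the Mettl3-deficient values. It fell by 4.04 ± 1.10 in log2 (edgeR adjusted p = 0.0443), a call that was lost without any library except wild type replicate 1 (highest edgeR adjusted p 0.14) and under the Y-linked covariate (-3.01, edgeR adjusted p = 0.214). The log2 fold change of Cyp2c40 was -5.0 without Mettl3-deficient replicate 1. Cyp2c69 held 20.2, 958 and 698 CPM against 30.7, 1.66 and 4.08 CPM and was not called (-5.52 ± 1.90, edgeR adjusted p = 0.0921). Its groups overlapped through wild type replicate 1 alone, and without that library it was called lower (-6.09, edgeR adjusted p = 0.0159).

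Cyp2c55 (chromosome 19, 39006940 to 39042690), known to be induced through CAR and PXR, went the other way. It held 10.3, 3.85 and 9.54 CPM in wild-type livers and 64.3, 18.9 and 20.8 CPM in Mettl3-deficient livers. The groups did not overlap, with Mettl3-deficient replicate 1 the highest, and Cyp2c55 rose by 2.13 ± 0.58 in log2 (edgeR adjusted p = 0.0395). The call was lost without wild-type library 2 or 3 or Mettl3-deficient library 1 or 2 (highest edgeR adjusted p 0.0978) and with the Y-linked covariate (edgeR adjusted p = 0.0766), and without Mettl3-deficient replicate 1 the log2 fold change was 1.33. Cyp2c65, the next gene along the chromosome, had 0 counts in every wild-type library, where a count of 0 allows up to 3 counts, and 4, 5 and 6 counts in Mettl3-deficient libraries. It did not pass the filter and was not tested.

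The other Cyp2c genes were not called. Cyp2c29, the most abundant Cyp2c gene of wild-type livers per length at 798 CPM per kb, held 1810.3, 1286 and 1174 CPM in wild-type livers and 929.5, 274 and 755 CPM in Mettl3-deficient livers (-1.12 ± 0.44, edgeR adjusted p = 0.10). On the TMM scale its groups did not overlap although it missed the threshold. Cyp2c38 held 16.8, 19.2 and 12.2 CPM against 35.4, 10.7 and 54.5 CPM (1.06 ± 0.53, edgeR adjusted p = 0.18). Cyp2c67 held 379.5, 98.1 and 64.9 CPM against 33.6, 12.6 and 40 CPM (-2.66 ± 0.78, edgeR adjusted p = 0.0527), with its highest value in wild type replicate 1. Cyp2c38 was called higher without Mettl3-deficient replicate 2 (1.49, edgeR adjusted p = 0.0192), and Cyp2c67 was called lower without wild type replicate 3 (-3.06, edgeR adjusted p = 0.0427). Without wild type replicate 1 the log2 fold change of Cyp2c67 was -1.51. Cyp2c39 ranged from 0.775 to 7.99 CPM, and Cyp2c66 had 0 counts in all 6 libraries.

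**Figure D2:**
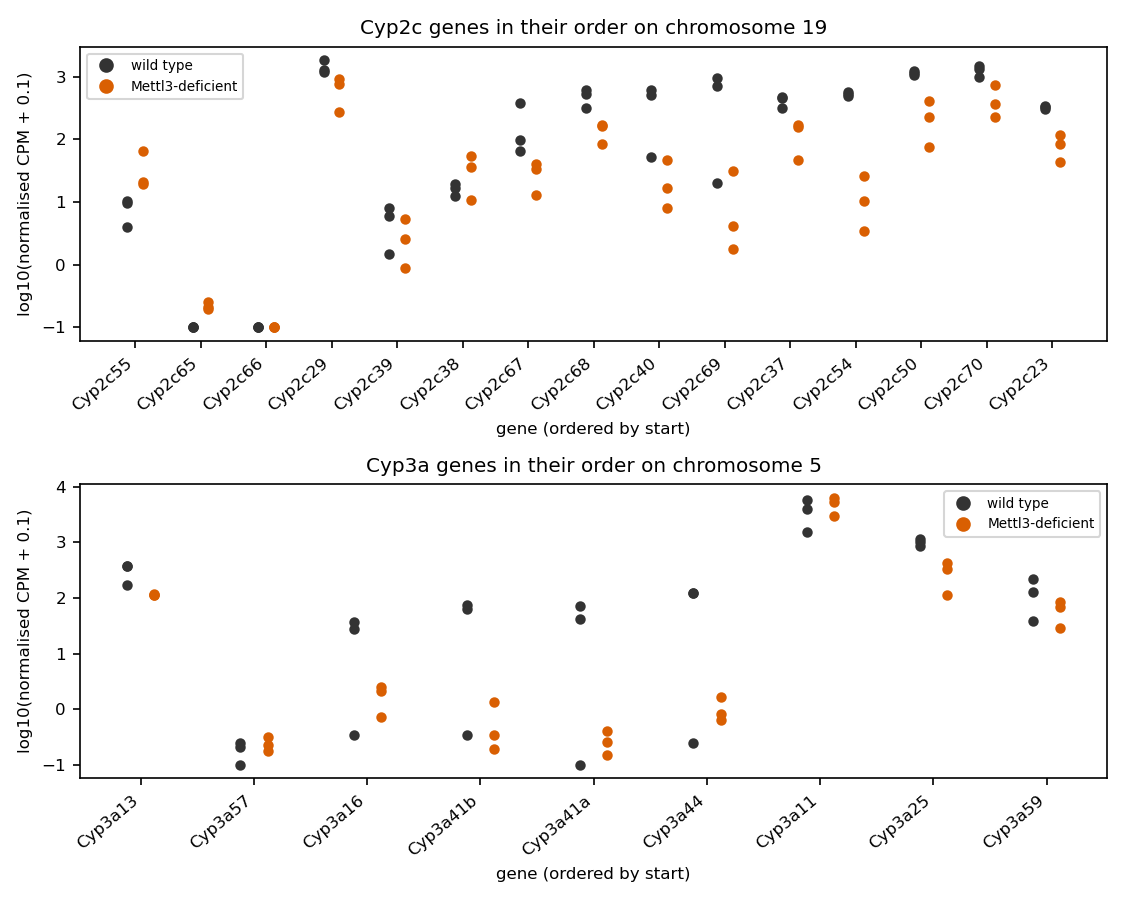
Level of each Cyp2c gene on chromosome 19 (top) and each Cyp3a gene on chromosome 5 (bottom) in the 6 libraries, as log10 of normalised CPM plus 0.1 on the vertical axis, with genes in their order along the chromosome on the horizontal axis. Cyp2c55 is the called riser at 1 end of the Cyp2c cluster, Cyp2c54 shows the widest gap between the groups among called genes, and 4 Cyp3a genes have 1 wild-type point, replicate 1, far below the other wild-type points.

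The Cyp2d genes of chromosome 15 fell in 5 of 8 tested members (10.5% of all tested genes) and rose in none (13.3%), with a median log2 fold change of -1.72. Cyp2d10 (82402845 to 82407253) held 888, 1016 and 991 CPM in wild-type livers and 298, 219.8 and 389.7 CPM in Mettl3-deficient livers (-1.67 ± 0.27, edgeR adjusted p = 0.00742). Cyp2d40 (82759833 to 82764122) held 83, 67.7 and 61.2 CPM against 6.5, 2.1 and 7.88 CPM, a 12.9-fold fall (-3.69 ± 0.46, edgeR adjusted p = 0.00393). Both were well separated between the groups and kept their calls without any 1 library.

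Cyp2d26, Cyp2d13 and Cyp2d11 fell as well, with groups that did not overlap on the TMM scale. Cyp2d26 held 719, 1055 and 984 CPM in wild-type livers and 486, 312 and 556 CPM in Mettl3-deficient livers (-1.03 ± 0.29, edgeR adjusted p = 0.0403). The pseudogene transcript Cyp2d13 held 417, 252 and 246 CPM against 50.7, 16.4 and 95.8 CPM (-2.49 ± 0.60, edgeR adjusted p = 0.0254), and Cyp2d11 held 1.81, 5.34 and 5.14 CPM against 0.472, 0.554 and 1.52 CPM (-2.27 ± 0.59, edgeR adjusted p = 0.0301). All 3 calls were lost without wild-type library 2 or 3 or Mettl3-deficient library 1, and those of Cyp2d26 and Cyp2d11 also without Mettl3-deficient replicate 2, with highest edgeR adjusted p values of 0.129 for Cyp2d26, 0.0901 for Cyp2d13 and 0.0998 for Cyp2d11. That of Cyp2d26 was also lost with library size alone. Without Mettl3-deficient replicate 3 the log2 fold changes were -3.18 for Cyp2d13 and -2.99 for Cyp2d11.

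Cyp2d9, a testosterone 16-alpha-hydroxylase that is male-predominant in textbook mouse liver, held 1042, 202 and 284 CPM in wild-type livers and 179.5, 94.4 and 177 CPM in Mettl3-deficient livers. Wild type replicate 1 was the highest library, and the groups did not overlap on the TMM scale. Cyp2d9 was not called (-1.76 ± 0.63, edgeR adjusted p = 0.0804), and without wild type replicate 1 its log2 fold change was -0.70. Cyp2d22, which has been compared with human CYP2D6, held 234, 317 and 324 CPM against 226, 179 and 262 CPM and was not called (-0.39 ± 0.23, edgeR adjusted p = 0.245). Cyp2d34 ranged from 0.244 to 1.34 CPM, and Cyp2d12, at most 36 counts in a library, was not tested.

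Cyp2e1 and Cyp2f2 are known from opposite ends of the liver lobule. Cyp2e1, which oxidises ethanol and acetaminophen near the central vein, held 3921, 5865 and 5620.1 CPM in wild-type livers and 2146, 1151 and 3639.8 CPM in Mettl3-deficient livers. On the TMM scale its groups did not overlap, but Mettl3-deficient replicate 3 came close to wild type replicate 1. As a share of all counts, Mettl3-deficient replicate 3 was above wild type replicate 1. Cyp2e1 was not called (-1.15 ± 0.43, edgeR adjusted p = 0.0886). Without Mettl3-deficient replicate 3 it was called lower (-1.64, edgeR adjusted p = 0.0301). Cyp2f2 (chromosome 7, 27119955 to 27133660), a periportal enzyme that activates naphthalene, held 1076, 1410.1 and 1581 CPM against 344, 192 and 201 CPM. Every Mettl3-deficient value was far below every wild-type value, and Cyp2f2 fell 5.51-fold (-2.46 ± 0.32, edgeR adjusted p = 0.00384), with the smallest adjusted p of the members. The difference between the falls of Cyp2e1 and Cyp2f2 was not tested. Per length, wild-type livers held 2802 CPM per kb of Cyp2e1 and 727 of Cyp2f2, and Mettl3-deficient livers 1262 and 132.

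Cyp2g1, known best from the olfactory mucosa and female-predominant in liver, was low throughout. It held 2.27, 4.35 and 6.99 CPM in wild-type livers and 0.943, 0.221 and 0.101 CPM in Mettl3-deficient livers, with no overlap. It fell by 3.42 ± 0.78 in log2 (edgeR adjusted p = 0.0201). The call was lost without wild-type library 2 or 3 or Mettl3-deficient library 2 (highest edgeR adjusted p 0.0763) and with the Y-linked covariate (edgeR adjusted p = 0.0565), and the log2 fold change was -4.76 without Mettl3-deficient replicate 1.

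Among the 7 Cyp2j genes of chromosome 4, only Cyp2j5 was called. Cyp2j5 (96627432 to 96664171), an arachidonic acid epoxygenase of liver and kidney, held 768, 659 and 590.2 CPM in wild-type livers and 190.1, 47.9 and 92.4 CPM in Mettl3-deficient livers. The groups were well separated, and Cyp2j5 fell 6.11-fold (-2.61 ± 0.48, edgeR adjusted p = 0.0102). Without Mettl3-deficient replicate 1 its log2 fold change was -3.26, and the call held without any 1 library. Cyp2j6, its neighbour by 1 gene, held 111, 91.9 and 86.5 CPM against 67.2, 78.9 and 92.2 CPM (-0.28 ± 0.18, edgeR adjusted p = 0.281), and Cyp2j9 10.7, 7.25 and 9.87 CPM against 13.3, 1.68 and 6.28 CPM (-0.39 ± 0.62, edgeR adjusted p = 0.678). The groups overlapped for both. Cyp2j11, Cyp2j12 and Cyp2j13 had 0 counts in all libraries, and Cyp2j8 at most 10.

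Of the single-gene subfamilies, Cyp2r1, a vitamin D 25-hydroxylase, held 22.6, 18 and 17.9 CPM in wild-type livers and 16.6, 7.64 and 9.83 CPM in Mettl3-deficient livers. Its groups did not overlap on the TMM scale. Cyp2r1 was not called (-0.78 ± 0.29, edgeR adjusted p = 0.0851), except without Mettl3-deficient replicate 1 (-1.16, edgeR adjusted p = 0.0333). Cyp2u1, a fatty acid hydroxylase, held 21.2, 3.78 and 3.73 CPM against 3.3, 5.29 and 2.46 CPM, with wild type replicate 1 apart from the other libraries. It was not called (-1.38 ± 0.72, edgeR adjusted p = 0.20), was called lower with the Y-linked covariate (-1.5, edgeR adjusted p = 0.0417), and had a log2 fold change of -0.03 without wild type replicate 1. Cyp2s1 ranged from 0.924 to 3.27 CPM and was not called (edgeR adjusted p = 0.518). Cyp2t4 had 5 to 17 counts and Cyp2w1 0 counts in every library, and neither was tested.

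In Cyp3a, 2 of 8 tested genes fell (10.5% of all tested genes), none rose (13.3%), and the most abundant gene was not called. Cyp3a11 (chromosome 5, 145854607 to 145879854), the main Cyp3a enzyme of mouse liver and a PXR target, held 1566, 3944 and 5688 CPM in wild-type livers and 6373, 2982 and 5419 CPM in Mettl3-deficient livers. The groups overlapped, and the log2 fold change was 0.40 ± 0.50 (edgeR adjusted p = 0.58), or 0.03 without wild type replicate 1. Cyp3a25 (145977192 to 146009644) held 1134, 853 and 1012 CPM against 328, 115 and 421 CPM and fell by 1.80 ± 0.45 in log2 (edgeR adjusted p = 0.0261). Cyp3a13 (137892933 to 137925610), apart from the cluster, held 172, 375 and 371 CPM against 112, 113 and 116 CPM and fell by 1.43 ± 0.31 (edgeR adjusted p = 0.0165). Neither Cyp3a25 nor Cyp3a13 overlapped between the groups, and the Mettl3-deficient values of Cyp3a13 lay within a few CPM of each other. Both calls were lost without wild-type library 2 or 3 or Mettl3-deficient library 1, with highest edgeR adjusted p values of 0.0777 for Cyp3a25 and 0.0659 for Cyp3a13. Cyp3a59, 97.5% identical to Cyp3a25 in coding bases, held 38.3, 131 and 219 CPM against 69.4, 28.9 and 83.9 CPM and was not called (-1.09 ± 0.64, edgeR adjusted p = 0.252), but was called lower without wild type replicate 1 (-1.53, edgeR adjusted p = 0.0465).

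The female-predominant Cyp3a genes lie between Cyp3a57 and Cyp3a11 and shared a pattern. Cyp3a44 held 0.142, 125 and 122 CPM in wild-type livers and 0.546, 1.59 and 0.735 CPM in Mettl3-deficient livers. Cyp3a16 held 0.249, 27.1 and 37.3 CPM against 2.06, 0.62 and 2.43 CPM. The near-identical copies Cyp3a41a and Cyp3a41b, with 99.9% of their coding bases shared and reads that could be split between them, held 0, 72.5 and 42 CPM against 0.0496, 0.155 and 0.304 CPM, and 0.249, 74.2 and 62.9 CPM against 0.248, 0.0886 and 1.27 CPM. For each of the 4, wild type replicates 2 and 3 were high and the other 4 libraries low.

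None of these 4 was called over all libraries. The log2 fold changes were -6.41 ± 2.08 for Cyp3a44 (edgeR adjusted p = 0.0835), -3.66 ± 1.53 for Cyp3a16 (0.143), -7.79 ± 2.33 for Cyp3a41a (0.0682) and -6.44 ± 2.08 for Cyp3a41b (0.0825). Without wild type replicate 1 all 4 were called lower, at -6.99 for Cyp3a44 (edgeR adjusted p = 0.000668), -4.25 for Cyp3a16 (0.004), -8.38 for Cyp3a41a (0.000668) and -7.03 for Cyp3a41b (0.00328). Cyp3a57, with at most 10 counts in a library, was not tested.

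The windows before the starts of these genes are shown with that of Cyp3a11, which lies beside them and differs in its values. They are on the minus strand of GRCm38.p6 in the RefSeq table, at chr5:145879855-145879954 for Cyp3a11, chr5:145469724-145469823 for Cyp3a16, chr5:145720137-145720236 for Cyp3a41a, chr5:145584731-145584830 for Cyp3a41b and chr5:145805875-145805974 for Cyp3a44. Capitals mark CAAAGTCCA, a sequence bound by the hepatocyte factor HNF4.
Cyp3a11: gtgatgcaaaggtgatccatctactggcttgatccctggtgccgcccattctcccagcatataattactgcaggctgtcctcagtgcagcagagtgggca
Cyp3a16: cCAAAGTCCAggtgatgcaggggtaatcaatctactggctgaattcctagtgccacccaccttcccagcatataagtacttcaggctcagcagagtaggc
Cyp3a41a: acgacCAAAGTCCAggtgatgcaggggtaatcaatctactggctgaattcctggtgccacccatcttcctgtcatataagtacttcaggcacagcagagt
Cyp3a41b: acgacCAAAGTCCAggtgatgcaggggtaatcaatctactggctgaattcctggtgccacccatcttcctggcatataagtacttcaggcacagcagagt
Cyp3a44: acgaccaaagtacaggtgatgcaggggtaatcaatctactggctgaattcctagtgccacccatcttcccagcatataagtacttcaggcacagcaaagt
The windows of Cyp3a41a and Cyp3a41b differed at 1 of 100 bases, and those of the 4 female-predominant genes shared at least 93.8% of aligned bases with each other. The Cyp3a11 window shared 81.2% to 83.1% with them. The CAAAGTCCA sequence was found in the windows of Cyp3a16, Cyp3a41a and Cyp3a41b, and not in those of Cyp3a11 and Cyp3a44.

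Over the members, 52 had an entry in the RefSeq promoter table, with 55 windows of 100 bases. Motifs were searched on both strands. TATAAA was found in 30.9% of the member windows and in 5.56% of all 32851 windows of the same length, and CAAAGTCCA in 12.7% and 0.17%. The 7 genes with CAAAGTCCA were Cyp2c40, Cyp2c68, Cyp2c69, Cyp2c70, Cyp3a16, Cyp3a41a and Cyp3a41b, many of which are copies of each other. TTGCNNAA was found in 20% of member windows and 3.43% of all windows, and GCGTG, the core bound by AHR, in 12.7% and 15.6%. No member window held TTCNNNGAA (the STAT5 sequence, 2.55% of all windows) or TTATGTAA (bound by DBP and TEF, 0.374%), which says only that these letters are not in these 100 bases. These shares are descriptions, and copies that arose together are counted separately.

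The sum of TMM-scaled CPM over all members had a lower mean in Mettl3-deficient livers. It covers families 1 to 3 only, takes no account of transcript length and includes the pseudogene transcript Cyp2d13. It was 19849, 28509 and 29244 CPM in wild-type livers and 15686, 7828 and 15344 CPM in Mettl3-deficient livers. On this TMM scale the groups did not overlap, with Mettl3-deficient replicate 2 the lowest. The mean was 2-fold lower, 12952 ± 4441 CPM against 25868 ± 5225 CPM in wild-type livers (SD, n = 3). As a share of all counts the groups overlapped, with Mettl3-deficient replicate 1 above wild type replicate 1. The exact two-sided permutation test gave p = 0.1, the smallest that 3 against 3 allows, so the design cannot pass 0.05. The counts of these members, called the P450 counts below, were 0.981% to 2.46% of all counts of a library. The log2 ratio of the sum was -1.0 over all libraries and -1.16 without wild type replicate 1.

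A large part of the Mettl3-deficient sum was Cyp3a11. Cyp3a11 made up 7.89%, 13.8% and 19.4% of the P450 counts in wild-type livers and 40.6%, 38.1% and 35.3% in Mettl3-deficient livers. Without Cyp3a11, the sum was 18284, 24565 and 23557 CPM against 9313, 4846 and 9925 CPM, a log2 ratio of -1.46. The Cyp3a sum had a log2 ratio of 0.01 (exact permutation p = 1) with Cyp3a11 and -1.80 without it. Cyp3a11 was left out after its values were seen, so the sums without it are descriptions and not tests. Cyp2c made up 31%, 26.9% and 21.8% of the P450 counts in wild-type livers and 17.5%, 10.4% and 12.5% in Mettl3-deficient livers, and its summed level had a log2 ratio of -1.88 (exact permutation p = 0.1).

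The remaining sums differed in whether the groups overlapped. Cyp2d (log2 ratio -1.37), Cyp2j (-1.98) and Cyp1a (-0.82) were lower in every Mettl3-deficient library than in every wild-type library, each at the smallest exact permutation p of 0.1. For Cyp1a this held on the TMM scale only. As a share of all counts, Cyp1a was higher in Mettl3-deficient replicate 1 than in wild type replicate 1. Cyp2a (-0.95) and Cyp2b (-1.22) overlapped through wild type replicate 1 (exact permutation p = 0.4 for both), and without that library their log2 ratios were -1.36 and -1.81.

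**Figure D3:**
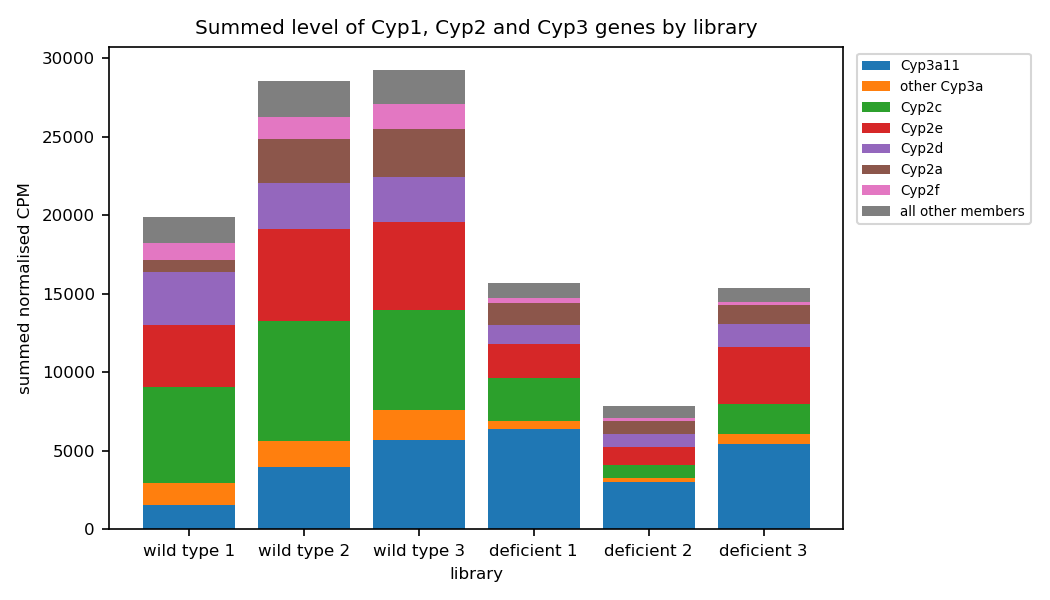
Summed normalised CPM of all members in each library (vertical axis, from 0), stacked by subfamily with Cyp3a11 shown apart. The 3 wild-type bars reach 19849 to 29244 CPM and the Mettl3-deficient bars 7828 to 15686 CPM, with Cyp3a11 taking 35.3% to 40.6% of the latter by counts.

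The sex-dimorphic members were compared as lists, since Y-linked reads divided the libraries unevenly between the groups. Of 10 female-predominant members by textbook knowledge, 2 fell (Cyp2c40 and Cyp2g1, beside 10.5% of all tested genes) and none rose (13.3%), with a median log2 fold change of -3.85. Their summed level was 76.4 to 2904 CPM in wild-type and 111.5 to 276 CPM in Mettl3-deficient livers, and the lowest wild-type sum was that of replicate 1. Without wild type replicate 1 all 10 were called lower (median -4.41), beside 10.7% of all tested genes. In that fit no wild-type library and 2 of 3 Mettl3-deficient libraries have Y-linked counts. Genotype and Y-linked counts can therefore not be fully told apart. With the Y-linked covariate 0 of 10 were called (median -3.15). The Mettl3-deficient library without Y-linked counts, replicate 3, was low for these genes too: it held 86 CPM of Cyp2b9, 157 of Cyp2a4 and 0.735 of Cyp3a44, where wild type replicates 2 and 3, also without Y-linked counts, held 282 and 309.6, 672 and 928, and 125 and 122. This compares 1 library with 2 and was not tested on its own. In an interaction of genotype and Y-linked reads, which rests on 1 wild-type library with such reads and 1 Mettl3-deficient library without, 7 members were called, against 1.11% of all tested genes, and they are described with the results for a closer look.

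Genes of known sex dimorphism outside these families gave the wider setting. Of 10 male-predominant genes, 2 fell, Slco1a1 and Selenbp2, none rose, and the median log2 fold change was -3.63. Over all tested genes 10.5% fell and 13.3% rose. Of 6 tested female-predominant genes, none was called, with a median of -2.19. Without wild type replicate 1, 4 of the male-predominant genes were called lower and 2 higher, and 5 of 7 female-predominant genes were called lower. In that fit 10.7% of all tested genes were called lower and 13.1% higher.

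**Figure D4:**
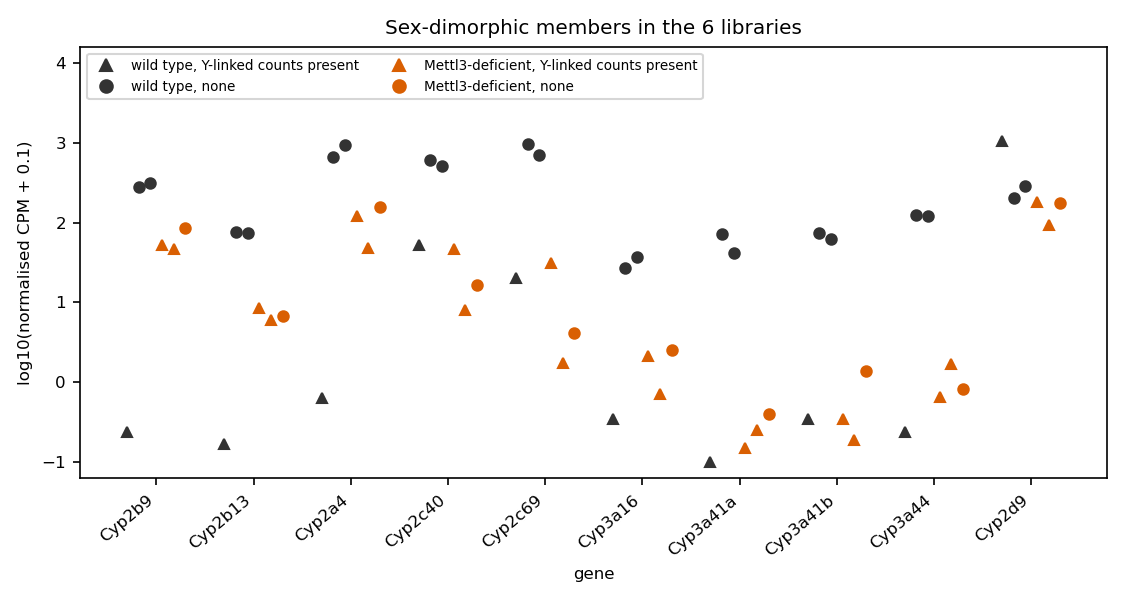
Level of 9 female-predominant members and of the male-predominant Cyp2d9 in each library, as log10 of normalised CPM plus 0.1 on the vertical axis, with genes on the horizontal axis, triangles for libraries with Y-linked counts and circles for those without. Wild type replicate 1 (dark triangle) is far below the other wild-type libraries for the female-predominant genes and above them for Cyp2d9, and the Mettl3-deficient circle lies among the Mettl3-deficient triangles or a little above them for most of the genes.

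The partners that P450 enzymes need were fixed as lists. Of 6 electron donors and heme-binding partners, 2 fell and none rose (median log2 fold change -0.80), beside 10.5% and 13.3% of all tested genes. Cyb5a, cytochrome b5, held 1200.3, 962 and 916 CPM in wild-type livers and 611, 463 and 628 CPM in Mettl3-deficient livers and fell by 0.86 ± 0.25 (edgeR adjusted p = 0.0399). Cyb5r3, its reductase, held 595, 521 and 514 CPM against 320.2, 201 and 314 CPM and fell by 0.96 ± 0.25 (edgeR adjusted p = 0.0288). The groups did not overlap for either. The Cyb5a call was lost without any 1 of the 6 libraries (highest edgeR adjusted p 0.112), and that of Cyb5r3 without wild-type library 2 or 3 or Mettl3-deficient library 1 (highest 0.0824). With library size alone, Cyb5a (-0.39, edgeR adjusted p = 0.206) and Cyb5r3 (-0.5, edgeR adjusted p = 0.113) were not called.

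Por and Alas1 had their lowest value in wild type replicate 1. Por, the reductase that feeds electrons to all of these enzymes, held 68.4, 1110.2 and 1207 CPM in wild-type livers and 297, 184 and 403 CPM in Mettl3-deficient livers (-1.43 ± 0.89, edgeR adjusted p = 0.274). Alas1, the first enzyme of heme synthesis, held 49.2, 830.0 and 922 CPM against 414, 329 and 247 CPM (-0.86 ± 0.87, edgeR adjusted p = 0.497). For both, wild type replicate 1 was the lowest of all libraries and the other wild-type libraries the highest. Without wild type replicate 1, Por (-1.98, edgeR adjusted p = 0.0115) and Alas1 (-1.41, edgeR adjusted p = 0.0155) were called lower. None of 11 genes of heme synthesis and breakdown was called over all libraries (median log2 fold change -0.22), and 1, Alas1, was called lower without that library.

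Of 30 receptors and factors known to control P450 genes, 10 fell and 1 rose, with a median log2 fold change of -0.72. Of all tested genes, 10.5% fell and 13.3% rose. Nr1i3, which encodes CAR, held 80.4, 160.4 and 175 CPM in wild-type livers and 30.7, 14.6 and 61.9 CPM in Mettl3-deficient livers and fell by 1.96 ± 0.54 (edgeR adjusted p = 0.0404). Nr1i2, which encodes PXR, held 68.3, 144 and 148 CPM against 66.2, 49.4 and 83.3 CPM and was not called (-0.86 ± 0.32, edgeR adjusted p = 0.0888), but was called lower without wild type replicate 1 (-1.14, edgeR adjusted p = 0.0165). Their partner Rxra was not called (-0.37 ± 0.33, edgeR adjusted p = 0.44), nor was Ahr (0.32 ± 0.26, edgeR adjusted p = 0.381), which held 45.9, 56.3 and 55.8 CPM against 60.9, 44.7 and 92.3 CPM. With library size alone Ahr was called higher (0.78, edgeR adjusted p = 0.0289), as were 33.4% of all tested genes. The call of Nr1i3 was lost without wild-type library 2 or 3 or Mettl3-deficient library 1 or 2 (highest edgeR adjusted p 0.127), and its log2 fold change was -2.62 without Mettl3-deficient replicate 3.

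Hepatocyte factors were among those that fell. Hnf4a held 593, 1023 and 954 CPM in wild-type livers and 383, 326 and 437 CPM in Mettl3-deficient livers (-1.17 ± 0.28, edgeR adjusted p = 0.0232), and Cebpa 678, 740.2 and 662 CPM against 249.6, 173 and 363 CPM (-1.40 ± 0.30, edgeR adjusted p = 0.0159). Nr3c1, the glucocorticoid receptor, held 104, 106 and 99.9 CPM against 46.8, 42.6 and 49.2 CPM (-1.16 ± 0.14, edgeR adjusted p = 0.00283). None of these overlapped between the groups. Only the Nr3c1 call of these held without any 1 library. That of Hnf4a was lost without wild-type library 2 or 3 or Mettl3-deficient library 1 or 2 (highest edgeR adjusted p 0.0874), and that of Cebpa without wild-type library 2 or Mettl3-deficient library 1 (highest 0.0681). The Hnf4a call was also lost with library size alone (-0.69, edgeR adjusted p = 0.0575).

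The clock-output factors Dbp and Tef fell furthest in the list. Dbp held 3.13, 8.49 and 16.2 CPM in wild-type livers and 0.174, 0.288 and 1.09 CPM in Mettl3-deficient livers (-4.16 ± 0.84, edgeR adjusted p = 0.0149), and Tef 59.7, 207 and 224 CPM against 18.1, 10.4 and 33.8 CPM (-2.98 ± 0.62, edgeR adjusted p = 0.0178). Both were separated between the groups and lowest, among wild-type livers, in replicate 1. The hour of collection is not stated. The Dbp call was lost without Mettl3-deficient replicate 2 (edgeR adjusted p 0.0617), and its log2 fold change was -3.49 without wild type replicate 3 and -5.30 without Mettl3-deficient replicate 3. The Tef call was lost without wild-type library 2 or 3 or Mettl3-deficient library 1 or 2 (highest edgeR adjusted p 0.0738).

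Rxrb (-0.83, edgeR adjusted p = 0.00744), Nr1h4 (-1.31, 0.0224) and Foxa1 (-0.73, 0.0431) fell as well. Rxrb kept its call without any 1 library but lost it with library size alone (-0.36, edgeR adjusted p = 0.073). Nr1h4 lost its call without wild-type library 2 or 3 or Mettl3-deficient library 1 or 2 (highest edgeR adjusted p 0.0878), and Foxa1 without any library except Mettl3-deficient replicate 1 (highest 0.137). The Foxa1 call was also lost with library size alone (-0.26, edgeR adjusted p = 0.361) and with the Y-linked covariate (edgeR adjusted p = 0.0637). The gene that rose was Nfe2l2, which encodes the stress-response factor NRF2 and held 74.7, 73.8 and 78.5 CPM in wild-type livers and 164, 168 and 161 CPM in Mettl3-deficient livers (1.12 ± 0.15, edgeR adjusted p = 0.00396). Its groups were far apart with little spread, and the call held without any 1 library.

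Known targets of the inducing receptors outside the P450 families gave mixed values. Of 10 targets of CAR and PXR, 4 rose and none fell: Abcc4, Abcc3, Akr1b7 and Gstm1 (median of the 10, 0.59). Of all tested genes, 13.3% were called higher and 10.5% lower. Without wild type replicate 1, 4 of the 10 were called higher and 2 lower (median 0.4), beside 13.1% and 10.7% of all tested genes. Abcc4, an export pump, held 1.46, 1.8 and 3.36 CPM in wild-type livers and 58.7, 87.6 and 37.9 CPM in Mettl3-deficient livers (4.80 ± 0.44, edgeR adjusted p = 0.00128), far apart and called without any 1 library. Gstm1, a glutathione transferase, held 1387, 808 and 982 CPM against 3669, 2509.5 and 2808 CPM (1.5 ± 0.31, edgeR adjusted p = 0.0142). The call of Gstm1 was lost without wild-type library 2 or 3 or Mettl3-deficient library 1 (highest edgeR adjusted p 0.0652).

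Abcc3, another export pump, rose by 1.21 ± 0.26 (edgeR adjusted p = 0.0172) and lost its call without wild type replicate 2 (edgeR adjusted p 0.0739). Akr1b7, an aldo-keto reductase, rose by 3.84 ± 0.87 (edgeR adjusted p = 0.0255), lost its call without wild-type library 2 or 3 or Mettl3-deficient library 1 (highest edgeR adjusted p 0.0927) and stood at 2.91 without Mettl3-deficient replicate 2. The Akr1b7 call was also lost with the Y-linked covariate (3.71, edgeR adjusted p = 0.0843). Of 4 tested AHR targets besides family 1, Nqo1 rose and none fell (median 0.03), beside 13.3% and 10.5% of all tested genes. Nqo1, which NRF2 also controls, held 8.13, 9.79 and 11.1 CPM against 34, 14.6 and 16.5 CPM (1.16 ± 0.33, edgeR adjusted p = 0.0385). Its groups did not overlap, but its call was lost without any wild-type replicate or Mettl3-deficient replicate 1 (highest edgeR adjusted p 0.104). The Nqo1 call was also lost with the Y-linked covariate (1.11, edgeR adjusted p = 0.0865).

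**Figure D5:**
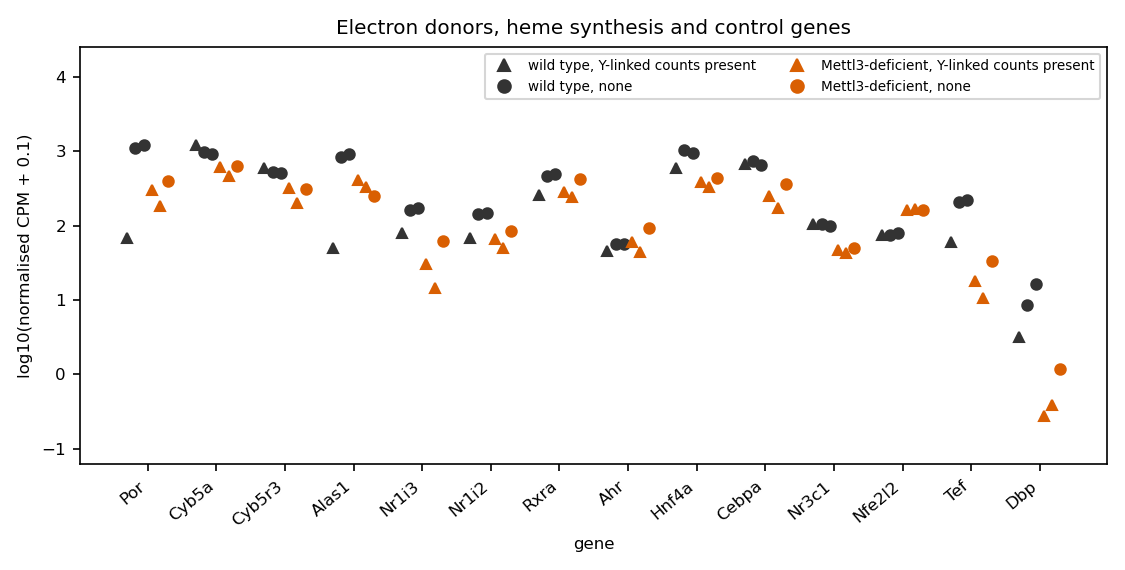
Level of electron donors, Alas1 and control genes of P450s in each library, as log10 of normalised CPM plus 0.1 on the vertical axis, with genes on the horizontal axis, triangles for libraries with Y-linked counts and circles for those without. Por and Alas1 are lowest in wild type replicate 1 (dark triangle), Nr3c1, Cebpa and Dbp are lower in every Mettl3-deficient library, and Nfe2l2 is higher in every one.

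Few markers of other liver cells were called, beside 10.5% of all tested genes called lower and 13.3% called higher. Of 6 cholangiocyte markers 1 rose (Sox9), of 6 Kupffer cell and macrophage markers 1 rose (Cd68), of 6 endothelial markers 1 fell (Lyve1), of 7 stellate cell and fibroblast markers none was called, and of 6 lymphocyte and neutrophil markers 1 rose (S100a9). Their summed levels were 84.5 to 109 CPM in wild-type and 76.1 to 225 CPM in Mettl3-deficient livers for cholangiocytes, and 91.1 to 358 and 308 to 569.5 CPM for Kupffer cells and macrophages. They were 131 to 203 and 121 to 157 CPM for endothelial cells, 392 to 436 and 325 to 642 CPM for stellate cells and fibroblasts, and 2.37 to 3.76 and 4.26 to 6.95 CPM for lymphocytes and neutrophils. No marker of these lists was at 0 in a library. Their part in the P450 values was not tested.

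Near-identical copies were spread over the subfamilies. A coding sequence at least 95% identical to that of another member was found for 19 members, 17 of them tested. Of these 17, 7 fell, and of the other 31 tested members 12 fell (10.5% of all tested genes). The latter include Cyp2d10 and Cyp2d11, which are 94.7% identical to each other, and the pseudogene Cyp2d13, for which no identity was computed. The part of reads shared between copies in these falls was not tested.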

How the data were processed

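Raw counts per gene of 6 livers were used as deposited, with no normalization. HISAT2, featureCounts and mm10 are named in the submitters' processing notes as the authors' tools and build. Versions, annotation and strand setting are not stated there, so reads of near-identical or overlapping genes could be shared. RefSeq (GRCm38.p6) named 25275 of 27179 identifiers, and 61 symbols there fit the rule.

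Groups came from the genotype labels. edgeR 4.0.16 (R 4.3.3) ran its robust quasi-likelihood test, two-sided, with TMM factors, on all 14380 genes kept by filterByExpr (minimum count 10, minimum total 15). Calls were made at a Benjamini-Hochberg adjusted p under 0.05 over all tested genes. Each SE of a log2 value is its absolute value divided by the square root of the F statistic of that test. It is not an SE given by the fit itself. The Y-linked covariate marks libraries with over 100 Y-linked counts. Coding identity came from GENCODE M21 with Biopython 1.88, over at least 900 aligned bases. The script was tested on simulated data. Libraries held 31960205 to 36025772 counts, and no 2 were alike within sampling noise. The closest pair was wild type replicates 2 and 3, at a chi-square per degree of freedom of 16.2. The next closest was Mettl3-deficient replicates 1 and 3, at 85.

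The members and lists were chosen with earlier results of these data known. The text names called members and those with a mean of at least 5 CPM, 1 or 2 others per subfamily, called genes of the partner, factor and target lists, and Por, Alas1, Ahr, Nr1i2, Nr1i3, Rxra and Hnf4a. Called markers and sex-dimorphic genes outside the families were named after their values were seen. Alternatives were other scalings and filters, DESeq2 1.42.0, limma-voom 3.58.1, a replicate block, the covariate and each library left out. 1 gene of the factor list is not reported here.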

Additional observations from a re-analysis of the deposited data

Results flagged for a closer look

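An interaction of genotype and Y-linked reads, tested with edgeR over all 14380 genes, was called for 7 members and for 1.11% of all genes. It was chosen after the low values of wild type replicate 1 had been seen. That library is the only wild-type one with Y-linked counts, and Mettl3-deficient replicate 3 is the only Mettl3-deficient one without, so the interaction largely restates the values of these single libraries and cannot tell them apart from an effect of Y-linked reads. Values are log2, positive where Mettl3-deficient minus wild type was higher among libraries with Y-linked counts. The interaction was 10.29 ± 0.97 (SE) for Cyp3a44 (edgeR adjusted p = 0.0122), 10.18 ± 0.43 for Cyp2b9 (0.00129) and 10.07 ± 0.53 for Cyp2b13 (0.00129). It was 9.63 ± 1.04 for Cyp2a4 (0.0161), 8.09 ± 0.83 for Cyp2b10 (0.0174), 7.39 ± 0.89 for Cyp2a22 (0.0286) and 5.17 ± 0.74 for Cyp3a41b (0.0329). For each of the 7, wild type replicate 1 was below wild type replicates 2 and 3.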

How the results depend on the processing

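With DESeq2, 29 members were called lower, against 19, and 15% of its tested genes. Leaving out a library in turn gave 8 to 27 lower members, 0 to 2 higher members and a summed log2 ratio of -1.16 to -0.74. No member was called higher with limma-voom, without the low-count filter or with the Y-linked covariate. With a replicate block 17 were lower and 1 higher. Calls over all genes, in either direction, numbered 3420 of 14380 in the main fit. They numbered 3277 with limma-voom, 3192 of 19341 without the filter, 3244 with the covariate and 2683 with the block. The deviations of same-numbered samples correlated at 0.08, -0.01 and 0.06, and those of other pairs across the groups at -0.11 to 0.03. With 3 samples per group these values cannot tell whether the replicate numbers pair the samples. The block changed the calls of Cyp1a1, Cyp1a2, Cyp2c40, Cyp2d26, Cyp2g1, Cyb5a, Nqo1 and Akr1b7, which were lost, and of Cyp2r1 and Cyp3a41a, which were gained. The summed log2 ratio, -1.0, was -0.53 with library size alone and -1.46 without Cyp3a11, the latter chosen after seeing the data, as was leaving out members at least 95% identical in coding bases (-1.33). Protein identity was not run. Some uncalled values changed sign. Cyp2a22 gave 0.19 with library size alone, 1.82 with limma-voom, 0.51 with the block, 2.84 with the covariate, 0.35 without wild type replicate 3 and 0.06 without Mettl3-deficient replicate 2 (-0.87 without wild type replicate 1). Cyp2b10 gave 0.34, 2.02, 0.97 and 2.68 under the first 4 and 0.84 without wild type replicate 3 (-0.75 without wild type replicate 1). With limma-voom and the covariate, Cyp2a4 gave 0.47 and 2.01, and Cyp2b9 1.32 and 2.15. Cyp2a5 gave -0.0049 with RLE factors and with DESeq2, -0.45 without wild type replicate 1 and -0.18 without Mettl3-deficient replicate 1. Library size alone gave 0.08 for Cyp2d22, 0.19 for Cyp2j6, 0.06 for Cyp2j9 and 0.11 for Rxra. Cyp2j9 gave 0.08 without Mettl3-deficient replicate 2 and -1.22 without replicate 1, and the covariate gave 0.14 for Por and 0.54 for Alas1. For single genes, 895 alternative values kept direction and call, 133 lost a call, 33 gained one and 26 changed sign. The cause of these changes was not tested. At this depth 12 members were not tested. How depth and the number of livers limit the other values was not tested.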

Other observations

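Pseudogenes with -ps in the symbol were left out by the rule, and 2 of them were in the files. Cyp2d37-ps had 2838, 1714 and 1751 counts in wild-type libraries and 455, 399 and 874 counts in Mettl3-deficient libraries, so that the groups did not overlap. Cyp2c53-ps had 107, 4 and 0 counts in wild-type libraries and 0 in every Mettl3-deficient library, with 107 of its counts in wild type replicate 1. These are raw counts with no test.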
